A study of Mus musculus with 84 samples.

Results

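The trimethylation of lysine 27 of histone H3 (H3K27me3) at gene promoters was compared between epididymal adipose tissue (epiAT) of mice after 12 weeks of a high-fat diet (H) and of control mice of the same age (C). The 5 H3K27me3 CUT&Tag libraries of these conditions, 2 of H and 3 of C, were taken by their labels from 84 samples in all. A promoter was the window of 2000 bp either side of each annotated start site of a protein-coding gene, and it was marked in a library when a peak of that library's list overlapped it by at least 1 bp. This gave 21851 genes with 41438 start sites. All animals were AdipoERCre x NuTRAP on a C576BL6 background, the spelling of the labels, and had received tamoxifen before the diet. In this model the Cre recombinase is driven by the adiponectin promoter, so that the nuclei of adipocytes carry a biotin tag by which they are pulled out of the whole tissue. Both C and H were 18 weeks old. Libraries of 6 further conditions are used here only as other animals. HC (26 weeks old) had 12 weeks of high-fat diet and then 8 weeks of standard chow, and CC_s (26 weeks old) had the control diet and then the same chow. HH (31 weeks old) had 25 weeks of high-fat diet and CC_l (31 weeks old) the control diet. HHC and CCC (39 weeks old) were as HH and CC_l, followed by 8 weeks of standard chow. The control diet was a low-fat chow that, by the study's methods, differed from the standard chow given later. The labels number biological replicates and do not say whether tissue was pooled.

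H3K27me3 is written by Polycomb repressive complex 2, whose catalytic subunits are EZH1 and EZH2, and is bound by the canonical forms of Polycomb repressive complex 1. It covers the promoters of developmental regulators that a differentiated cell does not use, often as domains that reach far beyond the promoter, and in mammals it is found mostly at unmethylated stretches rich in CpG. Promoters of genes of other cell lineages are the typical marked promoters of an adipocyte. A peak here is a block of signal within the top 1% of blocks of its library, so a promoter without a peak was not shown to lack the mark. "Gained" below means a peak in both H libraries and in none of the 3 C libraries, and "lost" means a peak in all 3 C libraries and in neither H library. These are descriptions by rule, with no test.

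The promoter sequences of 2 gained and 2 lost genes are printed because the gained and lost promoters differed in CpG content. They are from RefSeq on GRCm38.p6, run from 250 bases before to 50 bases after a start site on the gene's strand, and have each CG in capitals. Adrb1, the beta-1 adrenergic receptor gene (chr19:56721867-56722166, plus strand), was gained and holds 28 CG in this stretch, and 85.8% of 32851 RefSeq promoters of this length hold fewer. Bmpr1a, a type I receptor for bone morphogenetic proteins (chr14:34502497-34502796, minus strand), was gained and holds 48, with fewer in 98.8% of promoters. Icam1, an adhesion molecule that leukocytes bind (chr9:21015690-21015989, plus strand), was lost and holds 19, with fewer in 71.9%. Robo4, an endothelial guidance receptor (chr9:37401722-37402021, plus strand), was lost and holds 2, with fewer in 14.1%. The median over all these promoters was 7 CG, and 94.6% held at least 1. CG reads the same on both strands.
Adrb1: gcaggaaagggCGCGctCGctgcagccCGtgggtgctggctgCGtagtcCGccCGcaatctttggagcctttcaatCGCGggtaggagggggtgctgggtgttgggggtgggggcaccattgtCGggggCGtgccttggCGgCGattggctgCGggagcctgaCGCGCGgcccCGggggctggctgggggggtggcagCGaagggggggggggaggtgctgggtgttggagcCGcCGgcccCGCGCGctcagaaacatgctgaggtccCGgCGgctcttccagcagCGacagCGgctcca
Bmpr1a: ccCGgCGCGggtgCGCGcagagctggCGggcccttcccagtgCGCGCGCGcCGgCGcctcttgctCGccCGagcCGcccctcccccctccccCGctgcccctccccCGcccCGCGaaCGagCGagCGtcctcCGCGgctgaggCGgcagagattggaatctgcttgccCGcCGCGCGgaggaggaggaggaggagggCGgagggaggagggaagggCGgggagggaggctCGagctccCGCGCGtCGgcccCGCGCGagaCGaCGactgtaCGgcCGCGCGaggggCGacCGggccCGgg
Icam1: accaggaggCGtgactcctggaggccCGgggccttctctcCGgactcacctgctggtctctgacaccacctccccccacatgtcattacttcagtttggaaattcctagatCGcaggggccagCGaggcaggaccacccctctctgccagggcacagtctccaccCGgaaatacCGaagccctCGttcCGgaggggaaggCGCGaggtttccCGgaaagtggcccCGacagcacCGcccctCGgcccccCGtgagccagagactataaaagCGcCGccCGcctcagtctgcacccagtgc
Robo4: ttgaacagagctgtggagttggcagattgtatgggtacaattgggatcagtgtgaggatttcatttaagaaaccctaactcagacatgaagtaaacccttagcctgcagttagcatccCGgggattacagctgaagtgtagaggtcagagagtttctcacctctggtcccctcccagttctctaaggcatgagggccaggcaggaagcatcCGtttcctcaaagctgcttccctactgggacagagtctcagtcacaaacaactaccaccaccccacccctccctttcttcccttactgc

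The H lists covered a smaller length of the genome in a similar number of peaks, and this bears on every loss given below. The C libraries had 27007, 24044 and 33183 peaks and the H libraries 26179 and 28324. These covered 46.2, 43 and 64.1 Mb in C and 16.9 and 19.97 Mb in H, without overlap (18.4 ± 2.20 Mb in H, SD, n = 2, against 51.1 ± 11.4 Mb in C, n = 3, ratio 0.360, two-sided exact permutation p = 0.1, the smallest p that 2 against 3 libraries allow). The median peak was 571 ± 30.4 bp wide in H and 1309 ± 101 bp in C (ratio 0.436, exact permutation p = 0.1). The number of marked promoters overlapped between the groups, with 3008, 3133 and 3770 in C and 3220 and 3407 in H. Library depth was unknown, and the part of depth or signal to noise in these widths was not tested. The peaks of any 2 C libraries shared 0.338 to 0.364 of their joint length, those of the 2 H libraries shared 0.163, and those of a C and an H library 0.118 to 0.157.

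**Figure D1:**
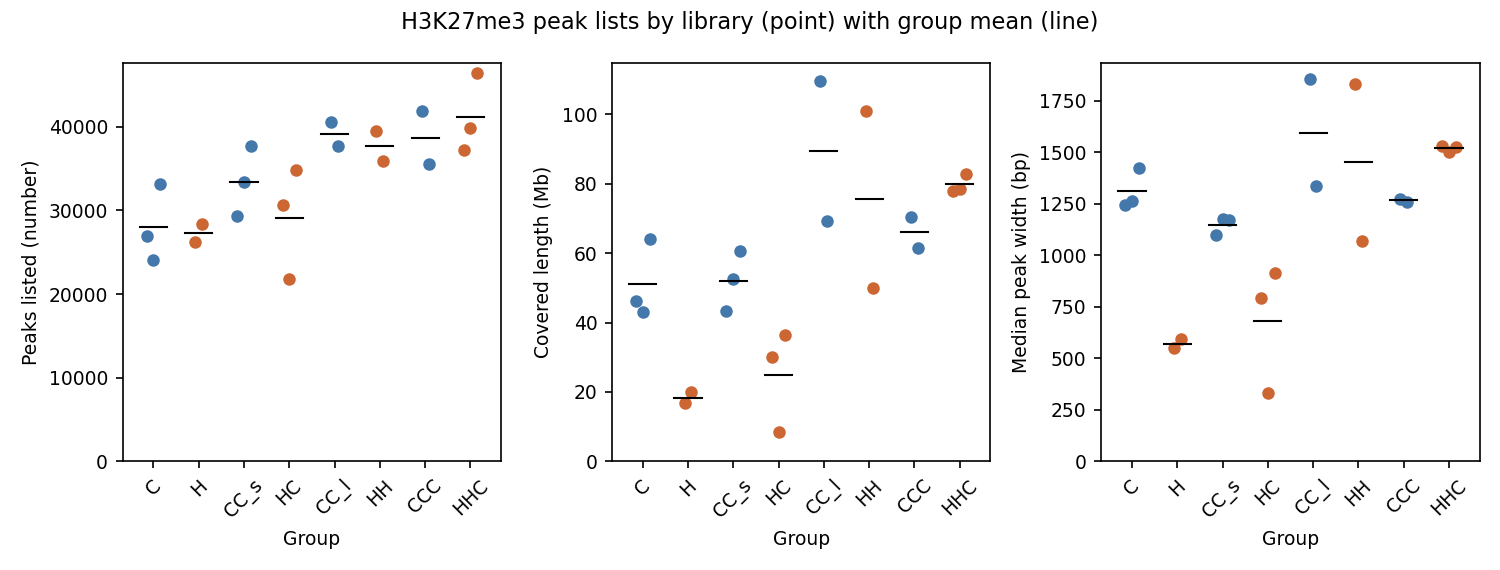
Number of H3K27me3 peaks, length covered in Mb and median peak width in bp for each library (points) of C, H and the other 6 conditions. The H libraries (16.9 and 19.97 Mb) lie below all 3 C libraries (43 to 64.1 Mb) in covered length, while their peak numbers lie within the range of C.

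The label of the cells was checked with promoters of marker genes. In H3K4me3, a mark of active promoters, 12 of 12 adipocyte marker promoters had a peak in each C library and 10 to 11 in each H library. Of 14 macrophage marker promoters, 4, 5 and 4 had an H3K4me3 peak in C and 12, 12 and 0 in H. H replicates 1 and 2 held Ptprc, Csf1r, Cd68, Adgre1, Lyz2 and C1qa among these, and the library labelled H replicate 3, which has no H3K27me3 counterpart here, held none. Of 10 endothelial markers, 2, 4 and 6 had an H3K4me3 peak in C and 9, 8 and 0 in H. In H3K27me3 the macrophage markers with a peak were 2, 1 and 2 of 14 in C (Tyrobp and C1qa) and 0 in both H libraries, so the other defining markers, Ptprc, Csf1r, Cd68, Adgre1 and Lyz2 among them, had no peak in any of the 5. Other cell types went the other way in H3K4me3. Of 8 mesothelial markers 3, 3 and 1 had a peak in C and 0 in each H library. Of 6 epithelial markers 2, 2 and 1 had one in C and 0 in each H library. The part of macrophage and endothelial nuclei in the losses below was not tested. Nor was that of mesothelial and epithelial nuclei in the gains. Adipoq, the adiponectin gene whose promoter drives the Cre, had an H3K27me3 peak over 40.9, 68.6 and 78.4% of its promoter in C and 69.1 and 73.5% in H, beside H3K4me3 and H3K27ac peaks in all 3 libraries of either group, and the groups overlapped.

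Of the 21851 genes, 16105 (73.7%) were marked in none of the 5 libraries and 1474 (6.75%) in all of them. In H, 282 promoters were gained (1.29% of all genes) and 352 were lost (1.61%). The gained promoters fell into 273 loci when overlapping windows were joined, and the lost ones into 337. Of the lost promoters 99 (28.1%) lay within 100000 bp of another lost promoter and of the gained ones 36 (12.8%). The largest groups of lost neighbours were 10 Hist1 histone genes on chromosome 13, 7 genes of a keratin cluster on chromosome 15 (Krt5, Krt72, Krt73, Krt75, Krt84, Krt90 and Gm5414) and 5 Cd300 receptor genes on chromosome 11. Reads of near-identical copies within a cluster can be shared. This was not examined here, so these calls are uncertain. The count of calls depended on the length the lists covered. With every list cut to its strongest peaks until all 5 covered the length of the shortest, an alternative chosen after seeing the data, 928 promoters were gained and 30 lost, of which 251 and 25 were among the 282 and 352. Left out one at a time, either H library also moved the counts (849 gained and 587 lost without H replicate 1, 807 and 666 without H replicate 2), as did C replicate 3 for the gains (442).

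By their medians, both the gained and the lost promoters lay under narrower domains than all marked promoters of the same libraries. These domains were wider than those of uncalled promoters marked in 1 to 4 of the 5 libraries. The uncalled ones included 634 marked in 1 C library alone and 1092 in 1 H library alone, while a call needs every library of a group. The part of this rule in the order of widths was not tested. A domain here is a run of peaks of one library with gaps under 3000 bp. The median domain over a gained promoter was 781 and 1032 bp wide in the 2 H libraries. There it was 1670 and 2386 bp over all marked promoters, and 677 and 857 bp over the uncalled ones. The median domain over a lost promoter was 3783, 3602 and 4253 bp in the 3 C libraries. There it was 4941, 4595 and 4964 bp over all marked promoters, and 2682, 2308 and 2422 bp over the uncalled ones. No C library had a peak anywhere in the widest H domain of 251 of the 282 gained promoters (89.0%), and 23 (8.16%) had a C peak within 10000 bp in each C library. At 244 of the 352 lost promoters (69.3%) the widest C domain held no H peak at all. At 53 (15.1%) both H libraries still had a peak inside that domain but outside the promoter, and at 84 (23.9%) both had one within 10000 bp. The first of these is the pattern of a whole domain absent from the H lists, and the second that of a domain with its promoter part missing.

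The adipocyte and lipid genes included 3 gained promoters, Adrb1, Cidea and Mlxipl, and no lost one, among 59 genes measured (5.08% gained, against 1.29% of all genes). Their marked promoters numbered 3, 2 and 4 in C and 11 and 10 in H, and the groups did not overlap, while over all genes the numbers did. Of the 13 members that could be tested for coverage, the share of the promoter under peaks, 1 rose (Adrb1). Most of the 13 were tested because they were marked in H, so no median is given. Coverage of Adrb1, which passes the catecholamine signal on to lipolysis, was 0% in C and 42.6 and 30.5% in H, under domains of 7958 and 15678 bp (difference 36.6 points, SE 8.61, limma adjusted p = 0.0274). Coverage of Cidea, a lipid droplet protein, was 0% in C and 12.6 and 58.6% in H (35.6 points, SE 14.9, adjusted p = 0.151). That of Mlxipl, the glucose-responsive lipogenic factor ChREBP, was 0% in C and 29.8 and 20.8% in H (25.3 points, SE 8.43, adjusted p = 0.0792). Neither passed the threshold, and the rule itself puts both H libraries above all 3 C libraries at gained promoters. Several others of the list were marked in a single H library and in no C library: Dgat2, Irs2, Mgll and Klf15 in H replicate 1, and Lpl, Lpin1, Irs1, Me1 and Cav1 in H replicate 2. These were 4 of the 11 and 5 of the 10 marked promoters, so the higher numbers in H came in part from genes that the H libraries did not share. Gpam, Acacb and Cyp2e1 were marked in none of the 5 libraries.

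Ligands, receptors and antagonists of the TGF-beta, BMP and Wnt pathways, which hold back or direct the formation of adipocytes from progenitors, were among the gains. Medians of a list below are over its tested members, those marked in at least 2 of the 11 libraries of the fit, and stand beside −10.3 points over all promoters tested. In the TGF-beta, BMP and activin list 4 of 66 genes were gained (6.06%) and 2 lost (3.03%), with a median coverage difference of −0.97 points. Over all genes 1.29% were gained and 1.61% lost. Bmpr1a had 20.7 and 29.4% of its promoter covered in H and 0% in C, under domains of 14246 and 12187 bp, and this rise passed the test (25.1 points, SE 4.30, limma adjusted p = 0.0104). Fst, which encodes follistatin, a binding protein of activin, had 46.2 and 30.5% in H and 0% in C (38.3 points, SE 9.23, adjusted p = 0.0293). At gained promoters the rule itself sets the groups apart, and the test rests on the same peaks. The H libraries alone take such promoters past the filter of at least 2 of the 11 libraries. Bmpr1a was marked in 0 of 3 CC_s and 0 of 3 HC libraries, so it entered the test only through H. The other gains were Bambi, a decoy receptor, with 9.62 and 10.7%, and Ltbp1, a protein of the latent TGF-beta complex, with 6.03 and 1.96%, and neither passed the test (adjusted p = 0.363 and 0.690). Among 54 Wnt genes 2 were gained (3.70%) and none lost. Of the 44 tested, 2 were higher and 10 lower in coverage, with a median of −21.6 points. Over all promoters tested 1.07% were higher and 11.7% lower. Fzd3, a Frizzled receptor, had 34.4 and 55.8% in H and 0% in C (45.1 points, SE 6.27, adjusted p = 0.00565). Wnt5a had 6.70 and 5.46% in H and 0% in C (6.08 points, adjusted p = 0.416). Wnt11 is a ligand that the presence rule did not take, since 9.58% of its promoter was covered in C replicate 3. It had 42 and 36.1% in H, above all C libraries, and passed the test (35.8 points, SE 7.50, adjusted p = 0.0183).

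Some transporter and axon guidance genes were gained too. At each gained gene named here the rule itself sets the groups apart, and the test rests on the same peaks. Slc16a9 and Zfp697 were marked in 0 of 3 CC_s and 0 of 3 HC libraries, so they entered the test only through H. Slc2a3, the glucose transporter GLUT3, had 56.1 and 33% of its promoter covered in H and 0% in C (44.6 points, SE 7.60, limma adjusted p = 0.0103). Slc16a9, a member of the monocarboxylate transporter family, had 28.9 and 55.7% in H and 0% in C (42.3 points, SE 6.93, adjusted p = 0.00945). These were 2 of 5 gained solute carriers among 369 (1.36%), a share close to that of all genes. Among the 53 tested of 71 genes of the axon guidance families, coverage was higher at 2 and lower at 9, with a median of −16.1 points. Over all promoters tested 1.07% were higher and 11.7% lower. Of the 71 genes 4 were gained and 4 lost (5.63% each). Over all genes 1.29% were gained and 1.61% lost. Slit3, a secreted ligand of Robo receptors, had 36.2 and 19.2% in H and 0% in C (27.7 points, SE 6.72, adjusted p = 0.0301). Igfbp5, a binding protein of insulin-like growth factors, had 26.6 and 27.6% in H and 0% in C (27.1 points, SE 7.88, adjusted p = 0.0546), just outside the threshold. Zinc finger genes named Zfp, most of which encode putative repressors, had 8 gained promoters of 394 (2.03%) and 1 lost (0.254%), and Zfp697 (19.3 and 24.9% in H, 0% in C, adjusted p = 0.0124) and Zfp641 (18.3 and 28.6% in H, 0% in C, adjusted p = 0.0355) passed the test.

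**Figure D2:**
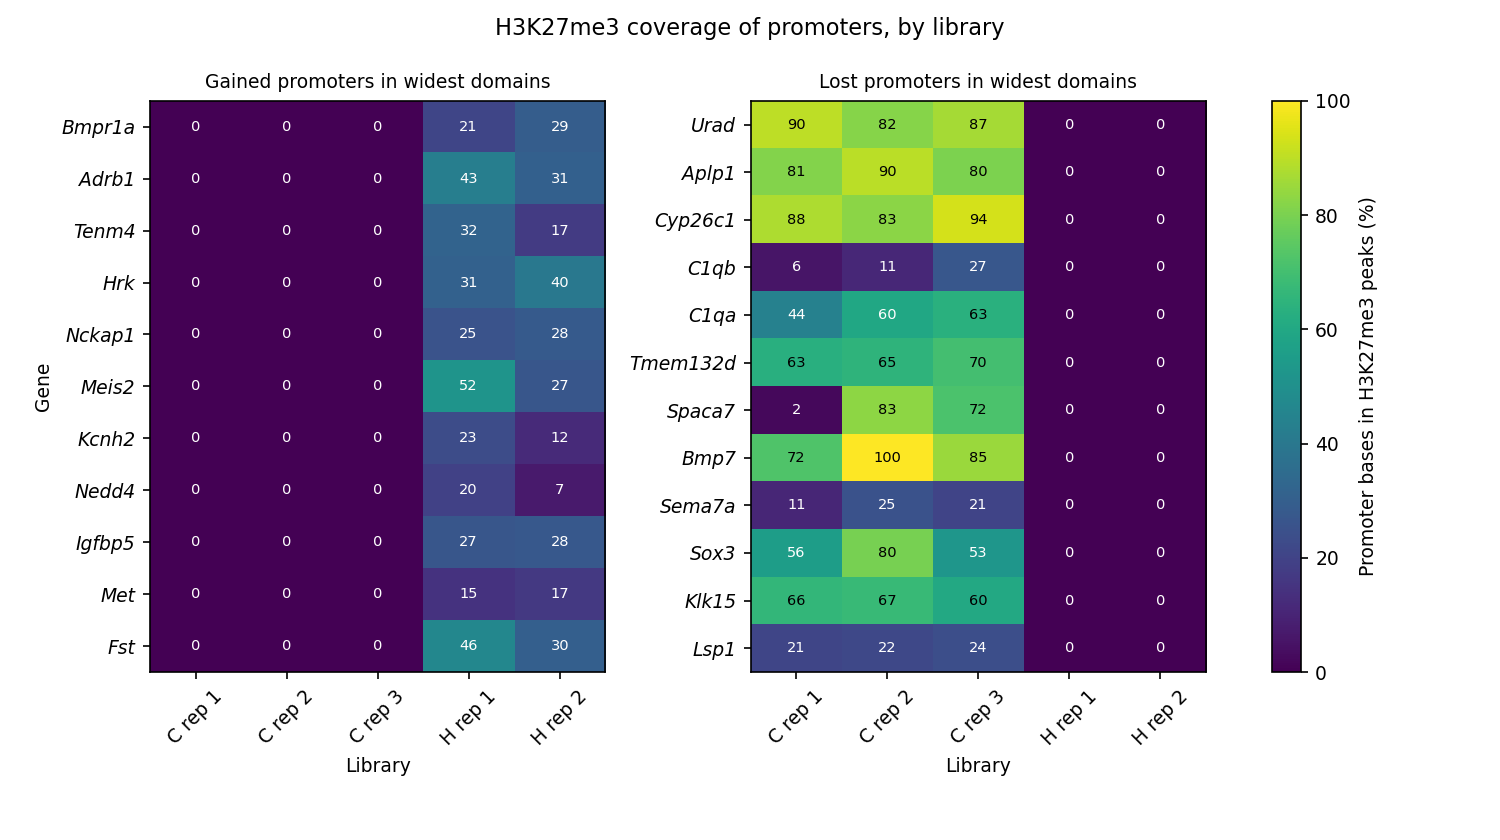
Share of the promoter covered by H3K27me3 peaks (percent, colour) in each of the 3 C and 2 H libraries (columns) for 11 gained and 12 lost promoters with the widest domains (lines of the map). By the rule that chose them, gained promoters are at 0 in all C libraries and lost ones at 0 in both H libraries.

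Developmental transcription factors, the textbook targets of the mark, were marked in all 5 libraries at 129 of 198 lineage factors and 20 of 39 Hox genes, and few were gained or lost. In the lineage list 2 were gained (1.01%) and 3 lost (1.52%), both near the shares over all genes. Of its 173 members tested, coverage was higher at 2 and lower at 37, with a median of −27.9 points. Over all promoters tested it was higher at 1.07% and lower at 11.7%. Meis2, a homeobox partner of Hox proteins, had 51.6 and 26.9% covered in H and 0% in C (39.3 points, SE 7.0, limma adjusted p = 0.0119). Gata6 was marked in C replicate 1 and so was not gained by the rule. Its coverage was 15.3, 0 and 0% in C and 69.4 and 51.1% in H, apart from all C libraries, and the rise passed the test (55.2 points, SE 9.70, adjusted p = 0.0114). Sox3, a neural progenitor factor, was lost, with 55.8, 79.6 and 52.7% in C and 0% in H (−62.7 points, SE 17.4, adjusted p = 0.0462). Myf6, a myogenic factor, was lost with 33.6, 40.2 and 46.4% in C (−40.1 points, SE 5.54, adjusted p = 0.00559). For Meis2, Sox3 and Myf6 the rule itself sets the groups apart, and the test rests on the same peaks. In the Hox list coverage was lower at 5 of 34 genes tested. Among 30 polycomb and H3K27 demethylase genes, Bmi1, a subunit of repressive complex 1, was gained with 5.08 and 10.1% in H and 0% in C (adjusted p = 0.252).

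Immune genes were among the losses. Of 58 innate immune and adhesion genes 4 were lost (6.90%, against 1.61% of all genes) and none gained, and of 188 chemokines, cytokines and their receptors 5 were lost (2.66%) and 2 gained (1.06%), with a median coverage difference of −4.68 points over the 61 tested, smaller than the −10.3 over all promoters tested. At equal covered length none of the lost promoters of either list was still lost, and the 2 gained ones of the chemokine list were still gained. Icam1 had 46.3, 59.2 and 92.2% of its promoter covered in C and 0% in H (−65.9 points, SE 14.8, limma adjusted p = 0.0237). C1qa, a chain of complement C1q and a macrophage marker, had 43.8, 59.6 and 63.4% in C and 0% in H, under C domains of 46000, 19738 and 93421 bp that also held C1qb (−55.6 points, SE 8.03, adjusted p = 0.00621). At both genes the rule itself sets the groups apart. C1qa had an H3K4me3 peak in 0 of 3 C and 2 of 3 H libraries. The promoter of C1qb itself had 5.77, 11.2 and 27.3% in C (adjusted p = 0.222), and that of Fcgr2b, an inhibitory Fc receptor, 21.1, 54.4 and 57.1% (adjusted p = 0.0724), both with 0% in H. Tnf, whose window overlaps that of its neighbour Lta, had 35.3, 55.2 and 17.1% in C and 0% in H (−35.9 points, SE 9.25, adjusted p = 0.0361).

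Other named losses were a receptor of the axon guidance list (Robo4), the receptor S1pr1, and ligands of the BMP pathway. None of the 10 endothelial markers was lost or gained by the rule. Where a promoter below was lost, the rule itself sets the groups apart, and the test rests on the same peaks. Robo4 had 100, 60.05 and 41.1% of its promoter covered in C and 0% in H, under domains of 12837, 10354 and 13795 bp (−67.1 points, SE 15.4, limma adjusted p = 0.0252). S1pr1, the sphingosine-1-phosphate receptor of endothelial and lymphoid cells, had 100, 85.1 and 100% in C and 0% in H (−95.0 points, SE 12.3, adjusted p = 0.00497). Fli1, a transcription factor of endothelial and blood cells, kept a peak in H replicate 1 and so was not lost by the rule. It had 100, 100 and 93.8% in C and 12.9 and 0% in H, the groups far apart (−91.5 points, SE 6.01, adjusted p = 0.000248). Robo4 and Fli1 had H3K27ac peaks in 0 of 3 C and 2 of 3 H libraries. Bmp7, a bone morphogenetic protein, had 72.5, 100 and 84.8% in C and 0% in H (−85.7 points, SE 11.6, adjusted p = 0.00537), and Bmp4 had 24.0, 55.8 and 88.4% in C and 0% in H (adjusted p = 0.0765).

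Neurotransmitter receptors, ion channels and cadherins included further losses. The rule itself sets the groups apart at the lost genes named here, and the test rests on the same peaks. Among 95 neurotransmitter receptors 9 were lost (9.47%) and 4 gained (4.21%), with a median of −29.2 points. Of 97 cadherins and protocadherins 7 were lost (7.22%) and none gained. Over all genes 1.61% were lost and 1.29% gained. At equal covered length 2 of the 9 lost receptors and 0 of the 7 lost cadherins were still lost. Of the 4 gained receptors 3 were still gained. Of 161 potassium, sodium, calcium and TRP channels 9 were lost (5.59%) and 3 gained (1.86%), of which 0 and 3 were so at equal covered length too. Of these channels 59.0, 60.9 and 65.2% were marked in the C libraries. Drd5, a dopamine receptor, had 81.2, 93.5 and 100% covered in C and 0% in H (−91.6 points, SE 13.8, limma adjusted p = 0.00678). Grm7, a glutamate receptor, had 59.7, 77.3 and 70.5% in C and 0% in H (−69.2 points, SE 8.34, adjusted p = 0.00423). Cdh11, a mesenchymal cadherin, had 58.1, 66.7 and 71.4% in C and 0% in H (−65.4 points, SE 12.2, adjusted p = 0.0124). Tmem132c, a membrane protein gene, was covered along the whole window in all 3 C libraries and 0% in H (−100 points, SE 10.1, adjusted p = 0.00283). Cyp26c1, a retinoic acid hydroxylase, had 87.6, 82.8 and 93.5% in C and 0% in H (−88.0 points, SE 9.19, adjusted p = 0.00283). Neither Drd5, Grm7, Cdh11, Tmem132c nor Cyp26c1 had an H3K4me3 or H3K27ac peak in any C or H library. At equal covered length Drd5, Grm7, Tmem132c and Cyp26c1 were still lost, as were Robo4, S1pr1, Bmp7 and Sox3, and Cdh11 was not. Olfactory receptors, with 17 of 1092 lost (1.56%) and 2 gained (0.183%), were lost at the share of all genes. Under every setting of the presence call 7 promoters were lost, Piwil1, Apba2, Shank2, Tm6sf1, Lingo2 and Npy2r among them, and 40 were gained under every setting, Bmpr1a, Cidea, Fzd3, Igfbp5, Slc16a9 and Slit3 among them.

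Coverage was tested at the 5324 promoters marked in at least 2 of 11 libraries (C, H, CC_s and HC, which share one estimate of the spread). In H 57 rose (1.07% of those tested) and 622 fell (11.7%) at an adjusted p under 0.05, with a median difference of −10.3 points and 68.0% of differences below 0. Of the 57, 46 were gained by the presence rule, which rests on the same peaks, and of the 622, 160 were lost. These counts rest on both H libraries: without H replicate 1, 9 rose and 42 fell, and without H replicate 2, 15 and 113, where the lone H library is assumed to vary like the other groups. Of the coverage calls of named genes that could be fitted, 9 of 53 held without H replicate 1 and 19 of 53 without H replicate 2. Without C replicate 1, 2 or 3, 29, 27 and 34 rose, and 512, 411 and 393 fell. At equal covered length 516 of 2442 promoters rose and 277 fell, so that the balance of higher and lower coverage turned with the scaling of the lists.

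CpG content differed between the gained and the lost promoters. In the 1000 bp around a start site, the gained promoters had a median of 55.6 CpG per kb (quartiles 35.4 and 80.3), the lost ones 26.0 (15.0 and 44.5), those marked in all 5 libraries 52.9 (36 and 72.4) and all promoters 40.03 (12.99 and 65.9). At least 50 CpG per kb were found at 58.2% of the gained, 20.7% of the lost and 39.99% of all promoters. The gained promoters were close to the promoters marked throughout, and the lost promoters lay below these and below all promoters. The sequences printed above follow this at Adrb1, Bmpr1a and Robo4, while Icam1 is a lost promoter with more CG than most.

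**Figure D3:**
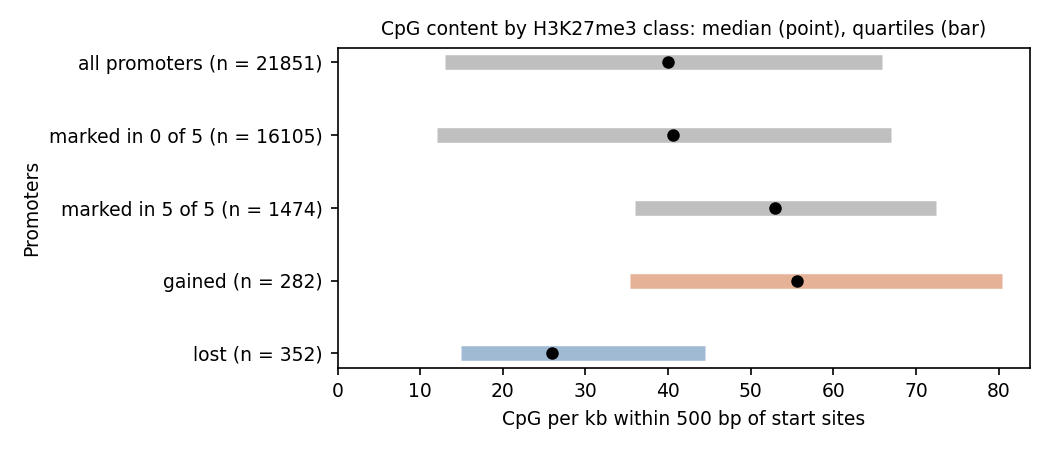
CpG dinucleotides per kb around the start site for the gained, the lost, the consistently marked and all promoters. The medians are 55.6 for the gained and 26.0 for the lost promoters, against 40.03 over all promoters.

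Domains were narrower in H over most promoters that kept the mark. Over the 1474 promoters marked in all 5 libraries, the median domain was 8405, 7731 and 10393 bp wide in C and 4122 and 5210 bp in H, without overlap. Domains of at least 10000 bp covered 630, 588 and 772 of them in C and 308 and 377 in H, and the peaks covered a median of 62.0, 68.3 and 71.8% of the window in C and 27.9 and 32.5% in H. In the width fit, over promoters marked in all 11 libraries, the uncentred median difference was −0.84 on the log2 scale (ratio 0.558), and 85.2% of 933 promoters tested were narrower in H. Relative to that median, 19 promoters were narrower (2.04%) and 6 wider (0.643%), and without centring 44 were narrower and 0 wider (limma, with 194 narrower and 6 wider at an unadjusted p under 0.05). Over the genome, domains of at least 10000 bp numbered 1266, 1189 and 1700 in C and 377 and 483 in H (ratio of means 0.310, exact permutation p = 0.1).

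Some domains went further than this common narrowing. Bcl11a, a transcription factor of neurons and lymphocytes, lay in domains of 63882, 58439 and 58035 bp in C and 1631 and 1346 bp in H (−4.44 on the centred log2 scale, SE 0.53, limma adjusted p = 0.00147). Dlk1, the gene of the preadipocyte factor Pref-1, lay in domains of 14955, 27045 and 19990 bp in C and 767 and 419 bp in H (−4.25, SE 0.68, adjusted p = 0.00894). Rgs5, a pericyte marker, had 10820, 7815 and 10415 bp in C and 623 and 578 bp in H (−3.10, adjusted p = 0.00147). In each of these the promoter remained marked in all 5 libraries and the groups were far apart in width. Elovl4, an elongase of very long chain fatty acids, went the other way, with 1467, 963 and 3105 bp in C and 9178 and 12669 bp in H (3.62, SE 0.55, adjusted p = 0.00723). Tbx2, a T-box factor, had 6500, 7189 and 7020 bp in C and 14500 and 17174 bp in H (2.09, adjusted p = 0.0225). The domains of Elovl4 and Tbx2 were wider in either H library than in any C library. Coverage of the Tbx2 promoter went the other way, with 52.1, 46.04 and 76.3% in C and 40.4 and 24.6% in H. For Elovl4 it was 36.7, 24.1 and 34.7% in C and 57.6 and 75.5% in H. Neither difference in coverage passed the test (limma adjusted p = 0.237 for Tbx2 and 0.0522 for Elovl4). Of 12 such width calls 6 held without H replicate 1 and 4 without H replicate 2. The width calls depended on how peaks are joined. With gaps of up to 10000 bp joined 4 promoters were narrower and 1 wider, and 1 of the 12 named calls held, and with peaks left apart 15 were narrower and 27 wider, and 4 of the 12 held. Hoxc13 lay in one of the widest domains and was about as wide in both groups, with 85554, 86634 and 91785 bp in C and 80220 and 93701 bp in H.

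**Figure D4:**
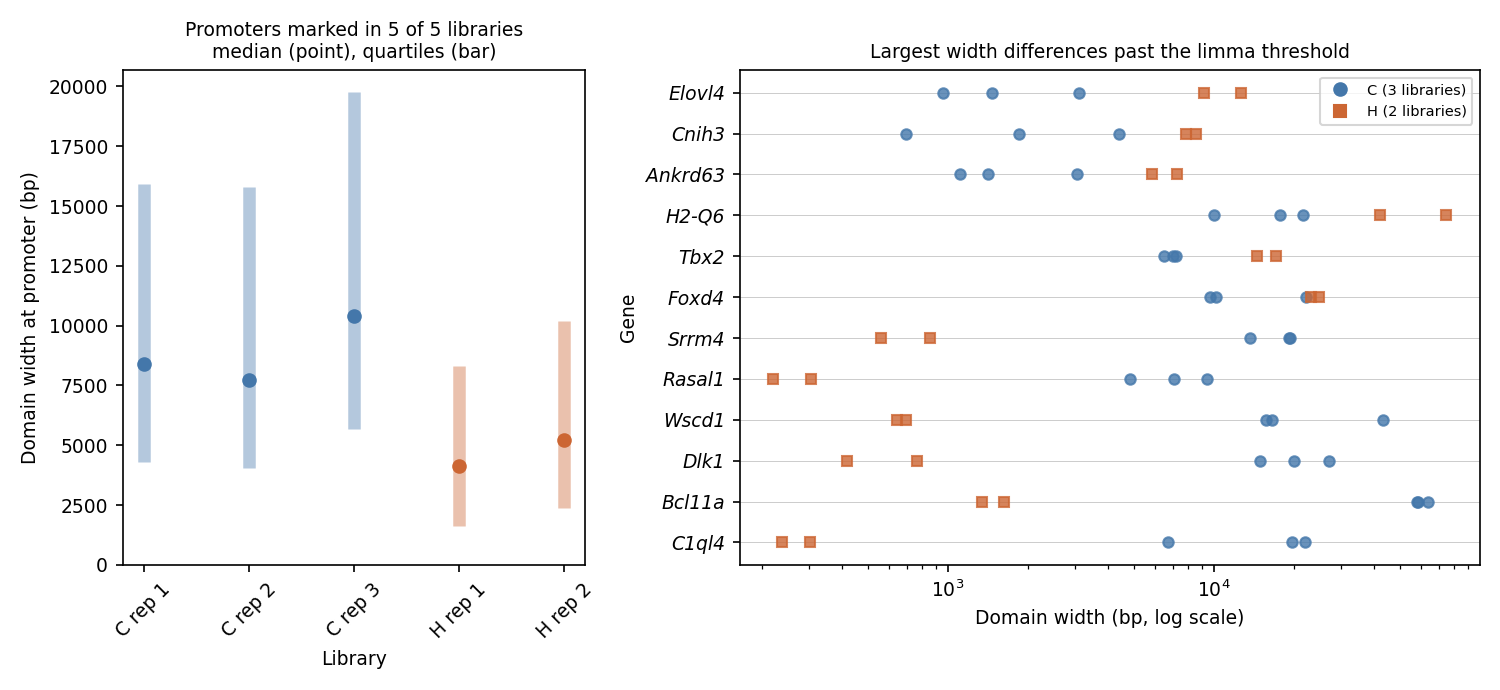
Left, H3K27me3 domain width (bp) over the 1474 promoters marked in all 5 libraries, as the median and quartiles of each library, with medians of 7731 to 10393 bp in C and 4122 to 5210 bp in H. Right, domain width (bp, log axis) in each library (points) for the 12 genes with the largest differences in width, such as Bcl11a (58035 to 63882 bp in C, 1346 and 1631 bp in H).

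The active marks were read at the same promoters in the 3 C and 3 H libraries of each mark, which the presence rule did not use. The gained promoters had an H3K4me3 peak at 78.7, 84.4 and 81.2% in C and 65.6, 64.9 and 43.97% in H (−23.3 points, exact permutation p = 0.1, the smallest possible, 0.15 adjusted over 6 comparisons), beside 58.7% in C and 50.7% in H over all promoters. For H3K27ac the share was 42.4 ± 2.61% in C and 23.6 ± 6.45% in H (SD, n = 3 each, −18.8 points, exact permutation p = 0.1, adjusted 0.15), beside 37.4% and 30.0% over all promoters, and at an equal number of peaks the difference was −10.6 points. In both marks the groups did not overlap at the gained promoters. Of the 215 gained promoters with H3K4me3 in 3 of 3 C libraries, 23 (10.7%) had none in any H library, against 3.07% of all promoters with it in C, and Cidea and Zfp641 were among these 23. H3K4me1 did not separate the groups (20.4% in H, 22.8% in C, exact permutation p = 0.6).

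Few lost promoters had active marks in either group. H3K4me3 was at 21.9 ± 2.97% of them in C and 22.2, 20.5 and 3.69% in H (exact permutation p = 0.6), and H3K27ac at 2.08 ± 0.164% in C and 11.9, 10.2 and 1.70% in H (difference 5.87 points, exact permutation p = 0.4). The groups overlapped in both marks. The library labelled H replicate 3 had the lowest share in each, and without it the H3K27ac difference was 8.99 points (exact permutation p = 0.1, the smallest possible). The H libraries with more H3K27ac at the lost promoters are those with the macrophage marker peaks, 8 and 6 of 14 macrophage promoters with H3K27ac against 3 in each C library and 0 in H replicate 3, and their part in it was not tested. Of the 342 lost promoters without H3K27ac in any C library, 18 (5.26%) had it in 2 or 3 H libraries, Robo4 and Fcgr2b among them, against 2.72% of all such promoters.

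The gained and lost promoters were then followed in the other animals, whose libraries had no part in calling them. The mean share of gained promoters marked was higher after high-fat diet than in the matching controls in all 3 comparisons, and the differences did not pass the threshold, which these numbers of libraries cannot reach. In HC 33.9 ± 20.4% of the 282 were marked and in CC_s 10.5 ± 2.17% (SD, n = 3 each, 23.4 points, exact permutation p = 0.1, adjusted 0.15), in HHC 67.6 ± 18.2% (n = 3) and in CCC 25.9 ± 21.1% (n = 2, 41.7 points, exact permutation p = 0.1, adjusted 0.15). The groups did not overlap in either comparison, and over all promoters the shares were 14.4% in HC, 15.9% in CC_s, 22.8% in HHC and 19.4% in CCC. Without HC replicate 3 the first difference was 11.6 points, and without CCC replicate 3 the second was 26.8 points. In HH 74.3 ± 12.3% and in CC_l 47.3 ± 33.3% were marked (n = 2 each, exact permutation p = 0.667), and these overlapped, with a difference of 3.37 points without CC_l replicate 2 and 50.5 points without CC_l replicate 1. Lost promoters were marked at 45.4 ± 20.3% in HC and 86.8 ± 3.51% in CC_s (−41.5 points, exact permutation p = 0.1, adjusted 0.48), at 81.8 ± 4.42% in HH and 94.3 ± 1.61% in CC_l (−12.5 points, exact permutation p = 0.333, the smallest possible, adjusted 0.48) and at 67.7 ± 14.7% in HHC and 91.3 ± 3.42% in CCC (−23.6 points, exact permutation p = 0.2, adjusted 0.48). The HC lists covered 25.0 ± 14.6 Mb and the CC_s lists 52.0 ± 8.64 Mb (n = 3 each, ratio 0.480, without overlap), and the part of this in the lower share of lost promoters in HC was not tested. HC replicate 2 covered 8.54 Mb, less than any other library, and without it the difference of HC and CC_s was −30.2 points.

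**Figure D5:**
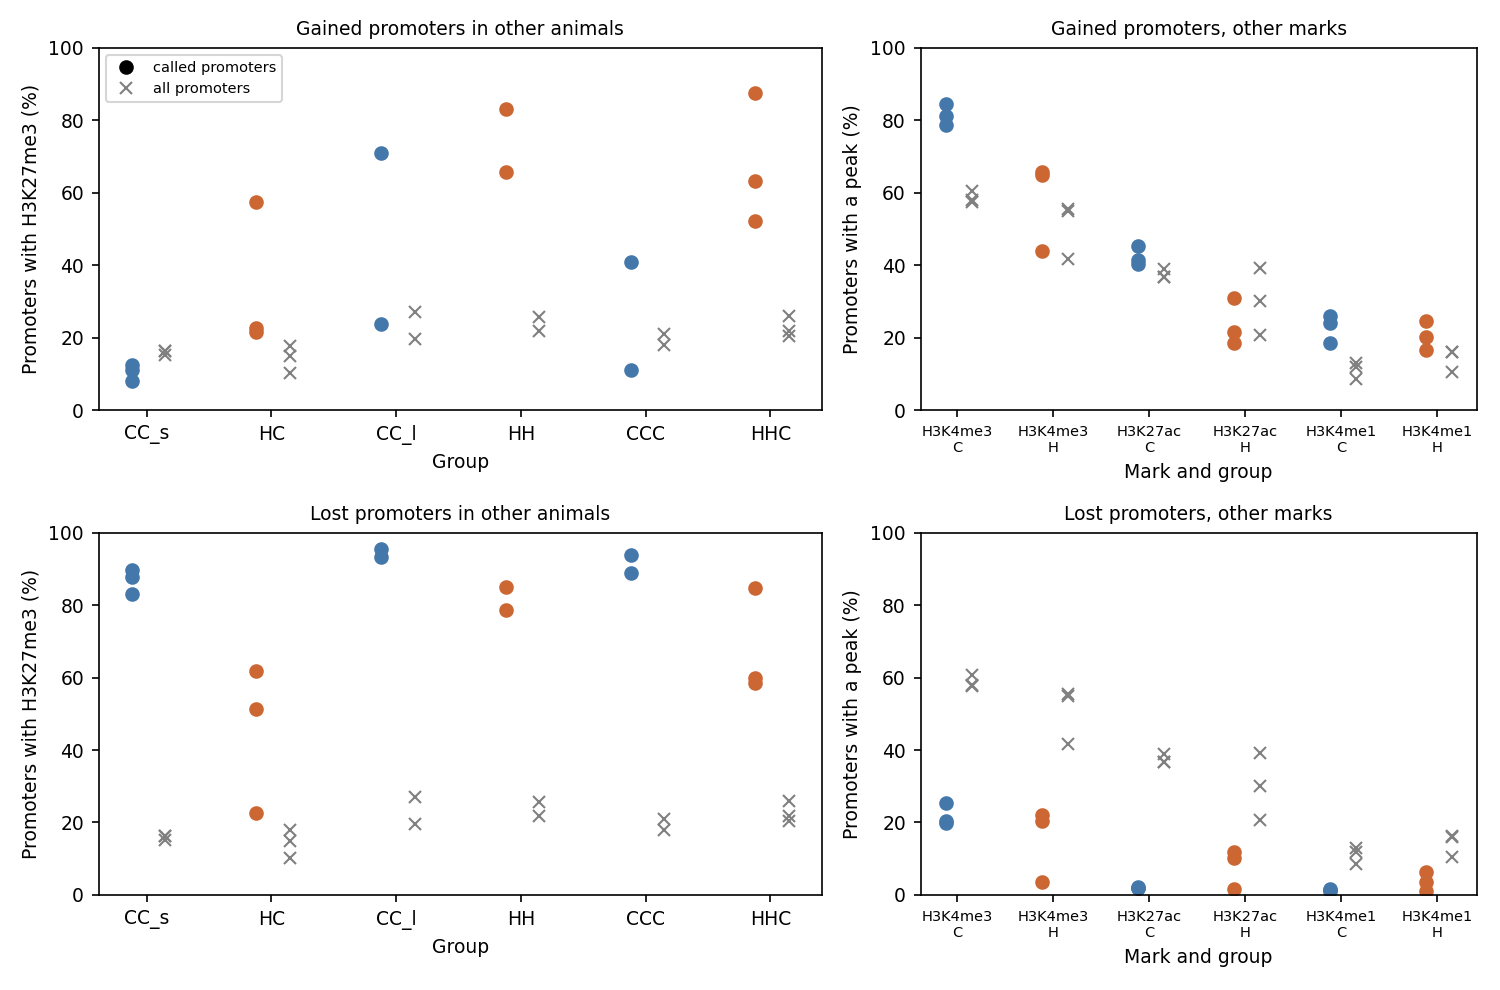
Share of the gained and of the lost promoters (percent, one point per library) with an H3K27me3 peak in the other animals and with H3K4me3, H3K27ac and H3K4me1 peaks in C and H. At the gained promoters HC (21.6 to 57.4%) lies above CC_s (8.16 to 12.4%), and at the lost promoters HC (22.7 to 61.9%) lies below CC_s (82.95 to 89.8%).

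Single genes differed in how far they followed these shares. Fst and Mlxipl were marked in 0 of 3 CC_s and 3 of 3 HC libraries, in 1 of 2 CC_l and 2 of 2 HH libraries, and in 0 of 2 CCC and 3 of 3 HHC libraries. Igfbp5, Tenm4, Tshr and Wnt5a made up, with these, the 6 promoters gained both here and by the same rule in HC against CC_s (2.13% of the 282 and 16.7% of the 36 gained there, which are 0.165% of all genes). Bmpr1a was marked in 0 of 3 libraries of both CC_s and HC, and in 1 of 3 of HHC. Of the lost promoters, 45 (12.8% of 352, and 24.9% of the 181 lost there, 0.828% of all genes) were also lost in HC against CC_s. In HH against CC_l 229 promoters were gained (1.05%) and 206 lost (0.943%), and 25 of the gained and 23 of the lost were the same as here (8.87% and 6.53% of the 12-week lists, 10.9% and 11.2% of the later ones). In HHC against CCC 299 were gained (1.37%) and 160 lost (0.732%), of which 44 and 21 were the same (15.6% and 5.97% of the 12-week lists, 14.7% and 13.1% of the later ones). Robo4 was marked in 3 of 3 CC_s and 0 of 3 HC libraries, but in all 2 HH and 3 HHC libraries. Icam1 was marked in 3 of 3 CC_s, 1 of 3 HC, 2 of 2 CCC and 0 of 3 HHC libraries, and in all 2 CC_l and 2 HH libraries. Ggta1, a glycosyltransferase gene with 5.71, 8.17 and 5.6% of its promoter covered in C (adjusted p = 0.324), was marked in every library of CC_s, CC_l and CCC and in none of HC, HH and HHC. Drd5 and Tmem132c were marked in every library of all 6 conditions and had no peak in the 2 H libraries alone.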

How the data were processed

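H3K27me3, H3K4me3, H3K27ac and H3K4me1 were profiled by CUT&Tag in nuclei of mouse epiAT. The deposited files are peak lists whose signal column is whole-number read coverage, made by the authors for each library separately, without pooling and without scaling to depth. The submitters' processing notes name Trim Galore 0.6.6, Bowtie2 2.4.4, SAMtools 1.13, bedtools 2.30 and SEACR 1.3 on mm10 (GRCm38). Duplicates were flagged, and their removal is not given in the sources used here. The study's methods state a stringent SEACR threshold of 0.01, the top 1% of signal blocks. Read depth is unknown, so no counting interval is given. A list can cover less of the genome because fewer blocks joined, and this changes coverage and width.

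Peaks were joined to promoters of GENCODE protein-coding genes with Python 3.11.15 and numpy 2.4.6. Coverage (percent of the window) and log2 domain width (peaks joined over gaps of up to 3000 bp, centred on the median) were tested with limma 3.58.1 in R 4.3.3 over 11 libraries of C, H, CC_s and HC, for promoters marked in at least 2 (coverage) or all 11 (width), with two-sided p-values adjusted by Benjamini-Hochberg over all promoters tested and a threshold of 0.05. Single values per library were compared by exact permutation, over all splits into groups of the same sizes, in Python with numpy. The fits were checked on simulated data: of 200 promoters shifted by 80 points 72.5% were recovered among 5324, and of 200 shifted by 3 log2 units 93.5% among 933. Of the unchanged promoters 19 (0.371%) and 9 (1.23%) were called. The rises in coverage named above were smaller than 80 points, so the check does not give the share recovered at their size. P-values measure the spread between the labelled replicates.

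Genes named are the gained and lost promoters with the widest domains (the narrower of the group's libraries), list members with calls, and the largest differences in coverage and width. Tshr, Wnt11, Npy2r and other genes outside this rule were chosen after their values were seen. Some genes are not reported here. The comparison, the gene lists and the marker lists were chosen with earlier results of these data known. Alternatives tried were other windows, overlaps, gaps, peak cuts, libraries in the fit, a replicate block and leaving out each library.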

Additional observations from a re-analysis of the deposited data

Results flagged for a closer look

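In the animals of 25 weeks of high-fat diet and 8 weeks of standard chow, the H3K27me3 lists differed from their controls in the opposite direction to H and C. The covered length was 13.9 Mb higher in HHC than in CCC (79.8 ± 2.68 Mb, SD, n = 3, against 65.9 ± 6.36 Mb, n = 2) and 32.7 Mb lower in H than in C (difference −32.7 Mb), and every library lay on its group's side in both comparisons. The median peak was 253 bp wider in HHC than in CCC, and the difference of H and C was −739 bp. The difference between the comparisons was not tested. No group of H3K27me3 libraries had the 4 samples that a test for an outlying sample needs.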

How the results depend on the processing

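With an overlap of at least 500 bp 130 promoters were gained. At equal covered length, chosen after seeing the data, 928 were gained and 30 lost, 516 had higher and 277 lower coverage, and 3 lay in wider domains. Leaving out one replicate at a time gave 310 to 849 gained and 425 to 666 lost promoters, 9 to 73 with higher and 42 to 894 with lower coverage, and 2 to 13 wider and 6 to 35 narrower domains (the upper ends without HC replicate 2, added after seeing the data). A replicate block gave 29 higher and 363 lower promoters. The deviations of same-numbered C and H libraries from their group means had r −0.04 and −0.02. With 2 H libraries these deviations are exact opposites of each other, so the values cannot decide whether the numbers pair libraries. Without the filter 87 promoters had higher coverage. Wider and narrower domains numbered 11 and 39 with the 5 H and C libraries only, 1 and 4 with gaps of 10000 bp, 0 and 44 without centring, 2 and 11 at equal peak number, and 27 wider with peaks not merged. Some uncalled differences turned direction. Peak number, H minus C on the log2 scale, ranged from −0.14 to 0.10, above 0 without C replicate 3 and, at 0.03, without H replicate 1. The number of marked promoters was −0.078 on the same scale with the peaks above the median total signal of each list, and ranged from −0.053 to 0.11 with one replicate left out, below 0 without C replicate 1, C replicate 2 or H replicate 2. The H3K4me3 share at lost promoters was 3.31 points higher in H at equal peak number. The width differences of C1ql4 (0.049 with gaps of 10000 bp) and H2-Q6 (−0.83 with peaks not merged) reversed. Covered length, median peak width and the number of wide domains were lower in H whichever library was left out. Of 58 named coverage calls 44 held under the replicate block, and of 42 that could be fitted at equal covered length 24 held. The causes were not tested. Depth is unknown and 2 H libraries limit all comparisons.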
